A study of Drosophila melanogaster with 2 samples.

Results

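RpL32, RpS10a and RpS15Ab encode proteins of the cytosolic ribosome and are 3 of the 2377 genes that could be named on the arrays of this series. They were taken by their symbols in the platform annotation and were chosen with their values on these arrays known, so their values are given as a description, with no test. RpL32 was spotted as 9 clones, each as a pair of adjacent spots, and RpS10a and RpS15Ab as 1 clone each, which makes 22 spots on each array. RNA came from whole adult females of the Oregon-R wild-type strain, 4 to 10 days old, that had been sprayed in a Potter's tower with 2 mL of 99% ethanol or of distilled water. Each extract pooled about 240 flies, and each of 2 arrays with 2 colours carried 1 ethanol and 1 water extract. The dyes were swapped, so that ethanol carried Cy3 on array 1 and Cy5 on array 2. The time from spray to sampling is 4 h in the series text and 6 h in the labels of array 1, and the labels of array 2 give none.

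Each value below is the deposited log ratio of a spot, read as log2. Neither its direction nor the base of the logarithm is stated by the labels or the table. Values are therefore called positive or negative as deposited, never higher in ethanol or in water, and both arrays were first taken to run the same way. Means over the arrays are also given with array 2 turned in sign, which is the coding to use if the values are Cy5 over Cy3. A ratio holds no level, so the female fly tissue could not be checked against marker genes, and fewer cells of a type cannot be told apart from less RNA per cell. Dye, array and biological replicate change together between the 2 arrays and cannot be told apart.

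The cytosolic ribosome joins a small subunit, which reads the mRNA, to a large subunit, which links the amino acids. Each subunit holds ribosomal RNA and many proteins, which are needed in matched amounts. Most ribosomal proteins of Drosophila come from 1 gene, and loss of 1 copy of many of these genes gives the Minute phenotype of slow growth and thin bristles. RpL32, long known as rp49, encodes a protein of the large subunit and is a customary reference gene for RNA measurements in flies. RpS10a and RpS15Ab encode small-subunit proteins, and each has a paralogue, RpS10b and RpS15Aa. Neither paralogue was among the named genes. Whether transcripts of RpS10b or RpS15Aa bound to the spots of RpS10a and RpS15Ab was not tested.

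RpL32, the large-subunit protein and reference gene, was negative on array 1 and near 0 on array 2. On array 1 its 18 spots lay between -1.07 and 0.06, the middle value being -0.58, and 17 of them were negative, where 49.0% of all named spots were. All 9 clone means were negative, where 49.1% of named clones were. In row order they were -0.17, -0.58, -0.54, -0.56, -0.78, -0.80, -0.71, -0.64 and -0.42. The first clone lay nearest to 0 and the sixth farthest below it. Of the 9 clones, 4 were 1.5-fold or more from equality (0.585 on the log2 scale), where 7.45% of named clones were.

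On array 2 the same 9 clones of RpL32 fell on both sides of 0. Their means, in the same order, were -0.02, -0.47, 0.38, 0.05, -0.36, -0.41, -0.12, 0.11 and 0.17. In all, 5 were negative and 4 positive, none was 1.5-fold or more from equality, and 48.8% and 5.22% of named clones were negative and past that size. The 18 spots lay between -1.05 and 0.64, the middle value being -0.07, and 10 were negative, where 49.5% of all named spots were. Every clone was lower on array 1 than on array 2, as 49.2% of named clones were. The clones share an array and its RNA, so they are repeated readings of 1 gene on 1 pair of extracts and not replicates of the treatment.

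**Figure D1:**
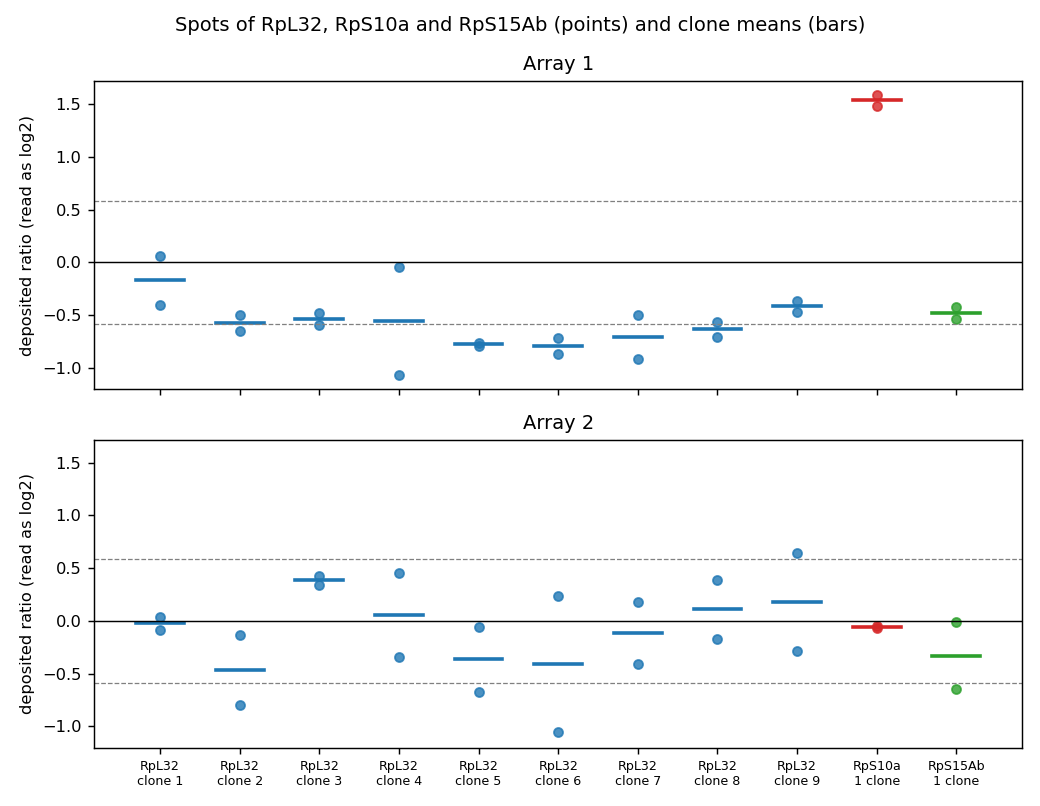
Deposited ratio (vertical axis, read as log2) of each spot of RpL32, RpS10a and RpS15Ab, with 1 column per clone, array 1 above and array 2 below. Points are the 2 spots of a clone, short bars are clone means, and dashed lines mark 1.5-fold. All 9 RpL32 bars lie below 0 on array 1 and 5 do on array 2, while RpS10a stands at 1.53 on array 1 and at -0.06 on array 2.

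The difference between the arrays went with a difference in how well duplicate spots of RpL32 matched. On array 1 the spots of a clone differed by 0.033 to 1.02, with a median of 0.151, and 3 of 9 clones differed by more than the median of all named clones, 0.169. On array 2 they differed by 0.083 to 1.29, with a median of 0.616, and 7 of 9 clones differed by more than the median of all named clones, 0.326. The spots of 1 clone had opposite signs on array 1, where 28.8% of named clones did, and those of 6 clones had them on array 2, where 46.7% did. The spots differed more on array 2 than on array 1 in 6 of the 9 clones and less in 3. The part of these differences in the value near 0 on array 2 was not tested.

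Averaged over its clones, RpL32 was at -0.58 on array 1, with an SD of 0.19 over 9 clones, and at -0.07 on array 2, with an SD of 0.29. The mean over arrays was -0.32 ± 0.36 (SD, n = 2), and -0.25 ± 0.46 with array 2 turned in sign. Both means were smaller in size than the spread between the arrays. On array 1, 71 of 2377 genes (2.99%) were lower than RpL32, and on array 2, 891 were (37.5%). Local medians were taken over the spots within 50 clones of each RpL32 clone in row order. Positions on the slide were not used, so an effect of slide position was not tested. On array 1 these medians lay between -0.17 and 0.13, with 3 negative and 6 positive, and the lowest was that around the sixth clone. Taken relative to these local medians, all 9 clones were still negative on array 1, with a mean of -0.58.

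RpL32 could be set beside the 9 other genes that had 7 or more clones. On array 1 the SD over clones of RpL32 was the second lowest of the 10 genes, the others lying between 0.15 and 0.78. On array 2 it was the fifth lowest, the others lying between 0.23 and 0.45. RpL32 was the only one of these 10 genes whose clones all had the same sign on array 1, and none did on array 2. CG9016, the gene with the most clones (19), was at 0.05 ± 0.32 on array 1 and -0.05 ± 0.29 on array 2 (SD over clones). CG12902, with 14 clones, was at -0.09 ± 0.26 and 0.13 ± 0.42, and CG2127, with 13, at 0.38 ± 0.36 and 0.08 ± 0.34. The means of these 9 genes lay between -0.37 and 0.48 on array 1, all above RpL32. On array 2 they lay between -0.32 and 0.31, with RpL32 among them.

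**Figure D2:**
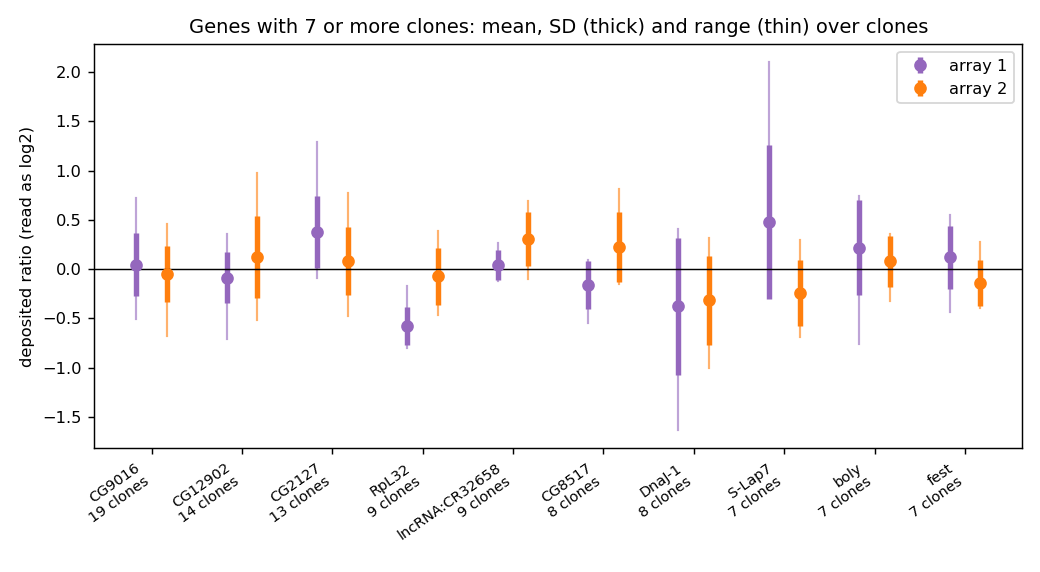
Mean deposited ratio (vertical axis, read as log2) of the 10 genes with 7 or more clones on array 1 (purple) and array 2 (orange). Points are means over clones, thick bars 1 SD over clones and thin lines the full range. The range of RpL32 on array 1, -0.80 to -0.17, is the only one on that array that does not reach 0.

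RpS10a, a protein of the small subunit whose gene is a duplicate of RpS10b, had a large ratio on array 1 only. Its spots read 1.48 and 1.59 on array 1 and -0.05 and -0.06 on array 2. They differed by 0.103 and 0.012, less than the median of named clones on each array, so the readings were close within each array and far apart between arrays. The clone mean of 1.53 on array 1 was 2.90-fold from equality, a size of at least 1.5-fold being reached by 6.14% of genes on that array, and 4 of 2377 genes were higher. On array 2 the mean of -0.06 had 957 genes (40.3%) below it. The mean over arrays was 0.74 ± 1.13 (SD, n = 2), and 0.80 ± 1.04 with array 2 turned in sign. Both were smaller than the spread between arrays, and the value rests on array 1 under either coding. Without array 1 it was -0.06.

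RpS15Ab, a small-subunit protein whose gene is a duplicate of RpS15Aa, was negative on both arrays. Its spots read -0.43 and -0.54 on array 1 and -0.01 and -0.65 on array 2. On array 1 the spots nearly matched, while on array 2 they differed by 0.631, more than the median of named clones, and 1 of them lay near 0. The clone means were -0.48 and -0.33, and 127 genes (5.34%) were lower on array 1 and 246 (10.3%) on array 2. Neither mean reached 1.5-fold, as 6.14% of genes did on array 1 and 4.75% on array 2. The mean over arrays was -0.41 ± 0.11 (SD, n = 2), and -0.08 ± 0.57 with array 2 turned in sign. In all, 24.1% of named genes were negative on both arrays, RpL32 and RpS15Ab among them.

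The 3 genes were compared within each array, where their ratios come from the same pair of extracts. RpS10a exceeded RpL32 by 2.11 on array 1, above all 9 RpL32 clones, and by 0.015 on array 2, where it lay above 4 of the 9. The mean difference was 1.06 ± 1.48 (SD, n = 2), smaller than the spread between the arrays, and 1.05 with array 2 turned in sign. RpS15Ab lay within the range of the RpL32 clones on both arrays. It differed from the mean of RpL32 by 0.09 on array 1 and by -0.26 on array 2, a mean of -0.08 ± 0.25 that became 0.17 with array 2 turned. RpS10a exceeded RpS15Ab by 2.02 and 0.27, a mean of 1.14 ± 1.23, or 0.87 with array 2 turned. The order on array 1 was thus RpS10a, RpS15Ab and RpL32, with the latter pair not separated beyond the spread of RpL32 clones. On array 2 it was RpS10a, RpL32 and RpS15Ab, with all of them inside that spread.

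Because RpL32 is used as a reference gene, the values of other genes were also taken relative to it. On array 1, 2305 of 2377 genes lay above RpL32 and the median gene stood at 0.58 relative to it. On that scale 1201 genes were 1.5-fold or more from RpL32, 1188 above and 13 below, where 146 genes were past this size as deposited. On array 2 the median gene stood at 0.083 relative to RpL32, 1485 genes lay above it, and 118 were 1.5-fold or more away, where 113 were as deposited. Setting RpL32 to 0 thus moved the genes of array 1 far more than those of array 2. This follows from the values of RpL32 itself, -0.58 on array 1 and -0.07 on array 2, which were subtracted from every gene alike.

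The other measured proteins of the cytosolic ribosome were RpS12, RpS28b and RpL22-like. RpS12, a small-subunit protein, was at -0.56 on array 1 and 0.38 on array 2. RpS28b, also of the small subunit, was at -0.27 and 0.16. RpL22-like, a duplicate of the large-subunit gene RpL22, was at 0.20 and -0.24. As deposited, each of the 3 had opposite signs on the 2 arrays, as 49.3% of all genes did. With array 2 turned in sign, each had the same sign on both arrays. Their means were then -0.47 for RpS12, -0.22 for RpS28b and 0.22 for RpL22-like. Over the whole table limma called no gene at an adjusted p of 0.05 (0.0%; Benjamini-Hochberg over 2377 genes, lowest 0.268), and 136 genes (5.72%) had an unadjusted p under 0.05. With array 2 turned in sign limma again called 0 genes (0.0%), with 95 (4.0%) at an unadjusted p under 0.05. RpS12, RpS28b and RpL22-like were each at a limma adjusted p of 0.996. Over all 6 genes of the cytosolic ribosome, 4 were negative on each array, where 49.0% and 48.5% of all genes were. Their ratios spanned -0.58 to 1.53 on array 1, where RpS10a and RpL22-like, with 1 clone each, lay above all 9 RpL32 clones. On array 2 they spanned -0.33 to 0.38, within the range of the RpL32 clones alone, so array 2 does not separate the 6 genes.

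**Figure D3:**
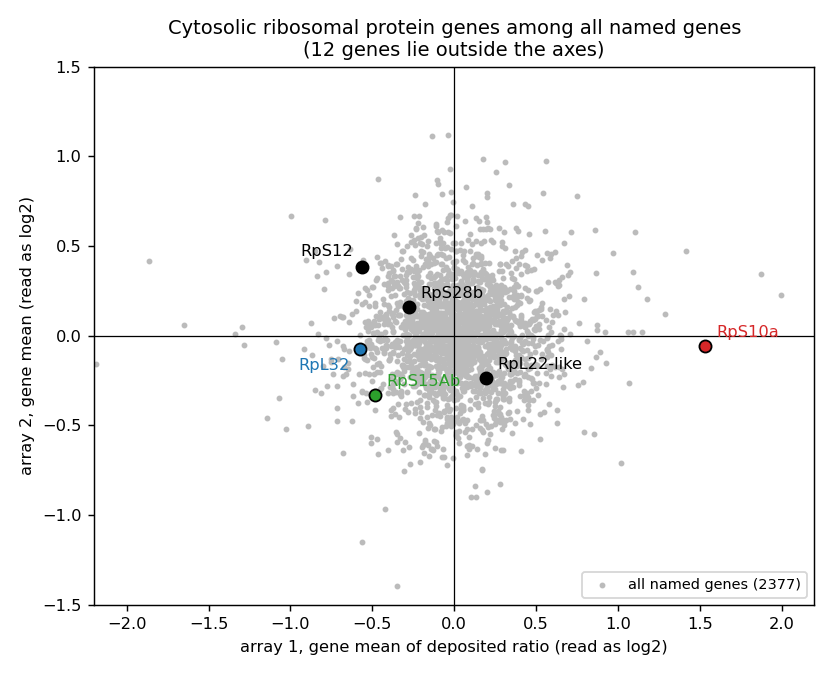
Gene means of the deposited ratio on array 1 (horizontal axis) against array 2 (vertical axis), both read as log2, for 2377 named genes in grey, of which 12 lie outside the axes. The 6 cytosolic ribosomal protein genes are marked by name, with RpL32 in blue, RpS10a in red and RpS15Ab in green. RpS10a lies at the right edge of the cloud on array 1 and near 0 on array 2, and RpL32 and RpS15Ab are the only 2 of the 6 that are negative on both arrays.

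Other genes of protein synthesis were read from the same fit, as 4 lists that held 31 genes besides the 3 described above. None of the 31 passed an adjusted p of 0.05 in either direction (limma, lowest adjusted p 0.268). An unadjusted limma p under 0.05 was reached by 2, both positive, where 5.72% of all genes reached it. That count was 3 with array 2 turned in sign, where 4.0% of all genes reached it. It was 1 of 30 without clones that held a spot of more than 3 in size, where 152 of 2365 genes reached it. The median of the 31 was 0.087 on array 1 and 0.076 on array 2, beside 0.0089 and 0.01 over all genes. The median of their means over the arrays was 0.066, and 0.021 with array 2 turned. As deposited, 13 of the 31 were positive and 4 negative on both arrays, where 26.6% and 24.1% of all genes were. The other 14 had opposite signs, as 49.3% of all genes did, and only these 14 would share a sign with array 2 turned.

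The translation factors bring mRNA, initiator tRNA and ribosomal subunits together or end synthesis. Of 13 measured, 5 were positive and 1 negative on both arrays as deposited, and 7 had opposite signs. Over all genes 26.6% were positive on both arrays, 24.1% negative on both and 49.3% of opposite sign. The regulator kra was at 0.42 ± 0.04 (SD, n = 2; limma adjusted p = 0.823), but 0.03 under the other coding of array 2. The eIF3 subunit gene eIF3f2 was at 0.37 ± 0.30, or 0.22 under that coding, and its spots differed by 1.17 on array 1. Among 10 genes of ribosome biogenesis, Fib, which encodes the rRNA methyltransferase fibrillarin, was at 1.99 on array 1 and 0.23 on array 2 (limma adjusted p = 0.268), but its spots differed by 4.53 on array 1. Nop60B, a pseudouridine synthase that modifies rRNA, was at -0.34 and -0.38, and at 0.021 on average with array 2 turned. Of the 10 biogenesis genes, 5 were positive and 3 negative on both arrays and 2 had opposite signs, beside the shares of all genes given above.

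The 6 aminoacyl-tRNA synthetases, which load amino acids onto tRNA, were all positive on array 1, the lowest at 0.02. On array 2, 4 of them were positive. Over all genes, 49.0% were negative on array 1 and 48.5% on array 2. The synthetase values were small in size, with LeuRS at 0.32 and 0.09 and the mitochondrial LeuRS-m at 0.12 and 0.10. Of 5 regulators of growth, Tsc1, an inhibitor of the TOR pathway, was at -0.36 and -0.44, a mean of 0.04 with array 2 turned. The gene foxo, a transcription factor restrained by insulin signalling, was at -0.62 and 0.12, a mean of -0.37 with array 2 turned. None of these 11 genes passed (limma, lowest adjusted p 0.996 for the synthetases and 0.854 for the regulators).

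Of the other customary reference genes, 3 were measured, each as 1 clone. None was negative on array 1, unlike RpL32, where 49.0% of all genes were. These were alphaTub84D, an alpha-tubulin, at 0.23 on array 1 and -0.25 on array 2, the cyclophilin gene Cyp1 at 0.12 and 0.36, and nrv2, a sodium pump subunit, at 0.39 and 0.17. With array 2 turned in sign their means were 0.24, -0.12 and 0.11, in that order. On array 1 the spots of these genes differed by 0.42, 0.24 and 0.26, in that order, more than the median of named clones, 0.169. On array 2 they differed by 0.27, 0.54 and 1.16, where the median of named clones was 0.326. The products of the 3 mitochondrial ribosomal protein genes serve the separate ribosome of mitochondria. All 3 genes were negative on array 1 and 2 of them on array 2, where 49.0% and 48.5% of all genes were. The farthest was mRpL13, at -2.65 and -0.34, with spots that differed by 1.33 on array 1, and mRpL16 was at -0.17 and -0.19. With array 2 turned, the mean was -1.16 for mRpL13 and 0.01 for mRpL16. None of the reference genes or mitochondrial ribosomal genes passed (limma, lowest adjusted p 0.996 and 0.268).

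**Figure D4:**
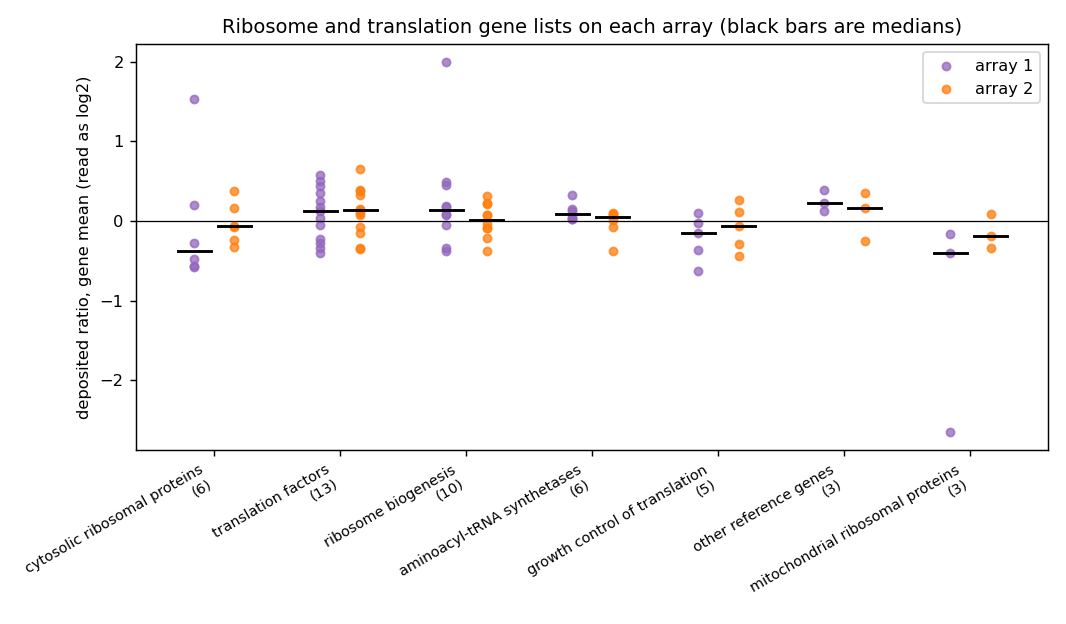
Gene means of the deposited ratio (vertical axis, read as log2) on array 1 (purple) and array 2 (orange) for the lists named in the text, with the number of measured genes under each. Points are genes and black bars are medians. The cytosolic ribosomal proteins, shown with all 6 members, are centred at a median of -0.38 (array 1) and -0.07 (array 2). Without the 3 genes that were chosen with their values known, the medians are -0.27 and 0.16.

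The genes whose pair of array values lay nearest to each gene were found by Euclidean distance over the 2 arrays. Nearest to RpL32 were CG3544, at -0.57 and -0.09, and Ypel, at -0.56 and -0.09, and 81 genes lay within 0.2 of it. Nearest to RpS15Ab were CG1688, at -0.50 and -0.33, and jet, at -0.48 and -0.31, with 55 genes within 0.2. No gene lay within 0.2 of RpS10a. The nearest were Tm2, a tropomyosin of muscle, at 1.29 and 0.12, and CG16782, at 1.14 and 0.02. With 2 arrays such likeness is a matter of position only.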

How the data were processed

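Total RNA (80 µg per labelling, per the labels' protocols) was measured on 2 spotted arrays. For each array the authors deposited a signed log ratio of every spot, read here as log2. The sources used here do not give the background correction, the normalization, the log base or the direction. Without intensities the signal above background is unknown, and precision is limited by having 2 arrays. The 16896 spots were taken as 8448 clones of 2 adjacent spots. Spots with 1 gene symbol (5666) were named through Entrez identifiers, all of which matched the current gene table, and 152 with several symbols and 11078 with none were left out. Spots were averaged per clone, then clones per gene. The mean over both arrays was tested against 0 with limma 3.58.1 (lmFit, eBayes) in R 4.3.3, with Benjamini-Hochberg adjustment over 2377 genes. On simulated data only the unadjusted p-values were checked, not the adjusted calls. Each p-value sets a gene's mean against a spread between these 2 arrays that eBayes moderates with the spread of all genes. It covers no variation beyond these arrays, and a low p-value does not show that the arrays matched for that gene. An exact sign permutation of 2 arrays cannot pass, so none was run.

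The 3 genes and all gene lists were chosen with earlier results of these data known. Besides these 3, the genes named are the other cytosolic ribosomal protein genes, the 2 members of largest mean size in each other list, the 2 nearest genes by array values and the 3 other genes with most clones; alphaTub84D was named after its values were seen. Rrp1 was taken out of the biogenesis list, since it encodes a DNA repair enzyme. No genome coordinates or sequences are given, because no build is named for the clones.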

Additional observations from a re-analysis of the deposited data

How the results depend on the processing

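With 1 array left out, RpL32 ran from -0.58 to -0.07, RpS10a from -0.06 to 1.53, turning in sign, and RpS15Ab from -0.48 to -0.33. Under the alternatives that used both arrays, RpL32 moved by less than 1 SD between arrays in 7 of 7 (-0.47 to -0.25), RpS10a in 8 of 8 (0.73 to 1.06), where that SD is wide, and RpS15Ab in 5 of 8. RpS15Ab moved to -0.077 with array 2 turned in sign, to -0.59 with values read as natural logs and to -0.082 relative to RpL32. The spread of RpL32 clones on array 2 was 0.198 as a median absolute deviation, beside an SD of 0.29. The former was not rescaled to an SD, so these 2 measures cannot be compared in size. With clones that held a spot of more than 3 in size left out, limma called 8 of 2365 genes (0.338%), or 0 with array 2 also turned (lowest adjusted p 0.216, 116 at an unadjusted p under 0.05). Relative to RpL32, limma called 9 of 2376 genes (0.379%), of which 7 held a spot over 3 in size, and 6 (0.253%) with array 2 turned, all 6 with such a spot. The 9 included 1 of the 31 other protein synthesis genes, Fib, which held such a spot (limma adjusted p = 0.0124, and 0.972 with array 2 turned). RpL32 was chosen with its values known, so these calls support nothing about it, and the cause was not tested. The fits scaled to RpL32, the turned coding without wide spots and the centring on spots near in row order were chosen after seeing the data. The other alternatives were robust eBayes and a common array scale, with 0 genes called (lowest limma adjusted p 0.466 and 0.487, 123 and 131 genes at an unadjusted p under 0.05). No paired analysis was possible because the 2 arrays form 1 group, each already pairing its ethanol and water RNA. What low signal limits is unknown, since intensities were not used here.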
